A study of Rattus norvegicus with 24 samples.

Results

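The 7 troponin genes Tnnt1, Tnnt2, Tnnt3, Tnni1, Tnni2, Tnnc1 and Tnnc2 were followed through disuse, recovery and repeated disuse of rat muscle. They were found by gene symbol and made up 22 transcript rows of 14243, or 7 gene symbols of 13458. Tnnt3 had 13 rows, Tnnt1 had 4, and each other gene had 1. Unless stated otherwise a gene's value was its row with the highest mean, in counts per 1000000 reads (CPM). All 22 rows passed the filter on low values, so no member was lost.

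The tibialis anterior (TA), the fast muscle at the front of the shin, was taken from male Fischer 344 rats aged 23 ± 1 months. Tetrodotoxin (TTX), a toxin that blocks nerve action potentials, was delivered from an implanted pump onto the left common peroneal nerve, so that the nerve stayed in place but the muscle was silent. The atrophy group was the left limbs of 3 animals after 6 to 7 days of TTX, the recovery group was the left limbs of 3 animals given 9 further days without TTX, and the repeated atrophy group was the left limbs of 3 animals given 5 to 6 days of TTX again after that. The control group was the 9 untreated right limbs of these same animals, pooled over the 3 time points, and 3 sham-operated animals, 1 per time point, gave 3 left and 3 right limbs. All groups therefore shared age, sex and strain, no young animals were included, and an untreated right limb belonged to an animal whose other leg had been silenced. Whole muscle RNA was sequenced, so fewer fibres of a type and less RNA per fibre cannot be told apart.

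Troponin is the calcium switch of the thin filament. Troponin C binds calcium, troponin I holds the filament off, and troponin T anchors both to tropomyosin. Each subunit is made from separate slow and fast muscle genes: Tnnt1, Tnni1 and Tnnc1 in slow fibres, and Tnnt3, Tnni2 and Tnnc2 in fast fibres. Tnnc1 also serves the heart, and Tnnt2 is the cardiac troponin T gene, which skeletal muscle uses during development and can use again after loss of its nerve supply. Fast troponin T pre-mRNA is known for its extensive alternative splicing, which includes a choice between mutually exclusive exons near the end of the coding sequence.

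The genes lie in pairs. In the rn7 coordinates of the deposited table, Tnni1 (chromosome 13, 47229779 to 47240600, plus strand) lay 31.7 kb from Tnnt2 (chromosome 13, 47272323 to 47285389, plus strand), with Lad1 between them. Tnni2 (chromosome 1, 197595012 to 197597555, plus strand) lay 55.0 kb from Tnnt3 (chromosome 1, 197652535 to 197669536, plus strand), with Lsp1 between them. Tnnt1 (chromosome 1, 69306362 to 69316722, plus strand) lay 2.78 kb from Tnni3, the cardiac troponin I gene. Tnnc1 (chromosome 16, 6402209 to 6405241, plus strand) and Tnnc2 (chromosome 3, 153513272 to 153516001, minus strand) stood apart from the others.

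The start-site windows of neighbours Tnnt2 and Tnni1 are shown because Tnnt2 passed the test in 2 groups and Tnni1, 31.7 kb away, in none. Those of Tnnt1 and Tnni2 are shown because they hold the letters TATAAA. In Tnnt1 these start at -30 on the plus strand, and in Tnni2 at -72 on the opposite strand. The sequences are RefSeq's, on build GRCr8, each running from 250 bases before to 50 bases after an annotated start, and 5 of the 7 genes matched a window. Capitals mark the M-CAT element CATTCC, to which TEAD factors bind, and the TATA box TATAAA, each on either strand.
Tnnt2, chr13:49818873-49819172, plus strand: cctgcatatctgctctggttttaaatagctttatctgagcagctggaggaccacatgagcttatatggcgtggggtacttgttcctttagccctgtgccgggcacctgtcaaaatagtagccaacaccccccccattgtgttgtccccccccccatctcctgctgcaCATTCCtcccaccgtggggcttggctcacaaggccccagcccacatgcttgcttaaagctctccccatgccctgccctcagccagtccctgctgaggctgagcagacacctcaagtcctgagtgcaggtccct
Tnni1, chr13:49781279-49781578, plus strand: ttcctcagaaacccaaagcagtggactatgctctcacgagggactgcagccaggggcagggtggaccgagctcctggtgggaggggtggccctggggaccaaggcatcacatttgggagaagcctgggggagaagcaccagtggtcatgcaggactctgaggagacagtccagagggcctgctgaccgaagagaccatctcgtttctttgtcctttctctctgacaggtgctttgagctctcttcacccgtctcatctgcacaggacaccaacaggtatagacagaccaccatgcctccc
Tnnt1, chr1:78348785-78349084, plus strand: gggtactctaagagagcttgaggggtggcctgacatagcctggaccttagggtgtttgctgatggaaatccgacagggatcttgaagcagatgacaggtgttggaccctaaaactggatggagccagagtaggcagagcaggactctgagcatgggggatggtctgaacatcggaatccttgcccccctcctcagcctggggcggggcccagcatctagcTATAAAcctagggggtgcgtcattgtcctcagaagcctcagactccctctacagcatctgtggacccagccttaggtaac
Tnni2, chr1:207024240-207024539, plus strand: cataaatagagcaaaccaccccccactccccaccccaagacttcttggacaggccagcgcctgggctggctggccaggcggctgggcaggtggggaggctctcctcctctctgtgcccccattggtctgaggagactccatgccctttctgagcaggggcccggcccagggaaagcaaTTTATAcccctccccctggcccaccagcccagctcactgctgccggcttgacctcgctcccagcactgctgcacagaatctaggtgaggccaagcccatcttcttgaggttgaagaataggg
The Tnnt2 window held CATTCC from position -83 relative to the start, and no other member's window held it. Across all 33469 promoter windows 14.2% held CATTCC and 14.2% held TATAAA. The E-box CANNTG, the motif of MyoD and myogenin, occurred 4 times in the Tnnt2 window and 3 times in the Tnni1 window, and 72.1% of all windows held at least 1. The MEF2 motif CTANNNNTAG was in none of the members' windows and in 3.84% of all windows. In the printed windows the capitals overlap no E-box, and a match describes letters only. A second annotated start of Tnnt2, not printed, held neither CATTCC nor TATAAA.

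The libraries held about 18900000 to 30900000 reads (median 26100000, from the step of 1 read in the low values), and the 22 rows together took 3.89 ± 0.632% of all CPM in control limbs (SD, n = 9). The fibre markers Ckm, Acta1, Des, Mb and Myh4 were abundant in all limbs, but at unequal levels: their sum was 105393 to 164872 CPM in control limbs (median 153820), 60600 to 114717 in the atrophy limbs (median 69350), 124533 to 128402 in the recovery limbs, 87781 to 106603 in the repeated atrophy limbs (median 101289) and 82081 to 139943 in sham limbs. The part of this difference in the troponin results was not tested. The left atrophy limb of animal 367 stood apart from the other TTX limbs. Over 6766 rows its median absolute left-to-right difference was 0.182 on the log2 scale, beside 0.647 and 0.323 in the other 2 atrophy animals and 0.166 to 0.176 in the sham animals. Its left-to-right ratio of Chrna1, the acetylcholine receptor subunit that rises in muscle without nerve activity, was 1.00, beside 15.99 and 9.64 in the other 2. That of Myog, a myogenic factor that also rises without activity, was 2.699, beside 10.5 and 5.91 in the other 2 and 1.04 to 1.78 in the sham animals. Among the recovery animals, 371 gave ratios of 15.85 for Chrna1 and 6.83 for Myog, beside 2.94 and 1.19 for Chrna1 and 1.74 and 0.472 for Myog in animals 369 and 370. The calls and list counts of the atrophy group are also given without animal 367, for the values above. Each group was compared with control by limma on log2(CPM + 1), and a row passed when it differed 1.2-fold or more with an adjusted p (Benjamini-Hochberg) up to 0.05. The median row moved by 0.22 in atrophy, by 0.02 in recovery and by 0.20 in repeated atrophy. Scaling by a trimmed mean of log ratios removed that shift and changed the split of higher and lower rows from 2844 and 327 to 663 and 695 after atrophy, and from 3936 and 876 to 1842 and 1697 after repeated atrophy.

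Fast troponin dominated every limb. Per kilobase of transcript and with rows summed, the control levels ran in the order Tnnt3 (19464 CPM per kb), Tnnc2 (16783), Tnni2 (8530), Tnnt1 (422), Tnnc1 (239), Tnni1 (125) and Tnnt2 (2.90). The ranges of Tnnt3 (13571 to 25056) and Tnnc2 (13584 to 20117) overlapped, and so did those of Tnnt1 (222 to 518) with Tnnc1 (109 to 342) and of Tnnc1 with Tnni1 (91.6 to 189). All other neighbours in the order were separate. Tnnt3 was 97.8 ± 0.813% of troponin T per length, Tnni2 was 98.5 ± 0.534% of troponin I and Tnnc2 was 98.6 ± 0.521% of troponin C in control limbs (SD, n = 9). The fast gene was at least 96.1% of its subunit in every limb of the study.

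**Figure D1:**
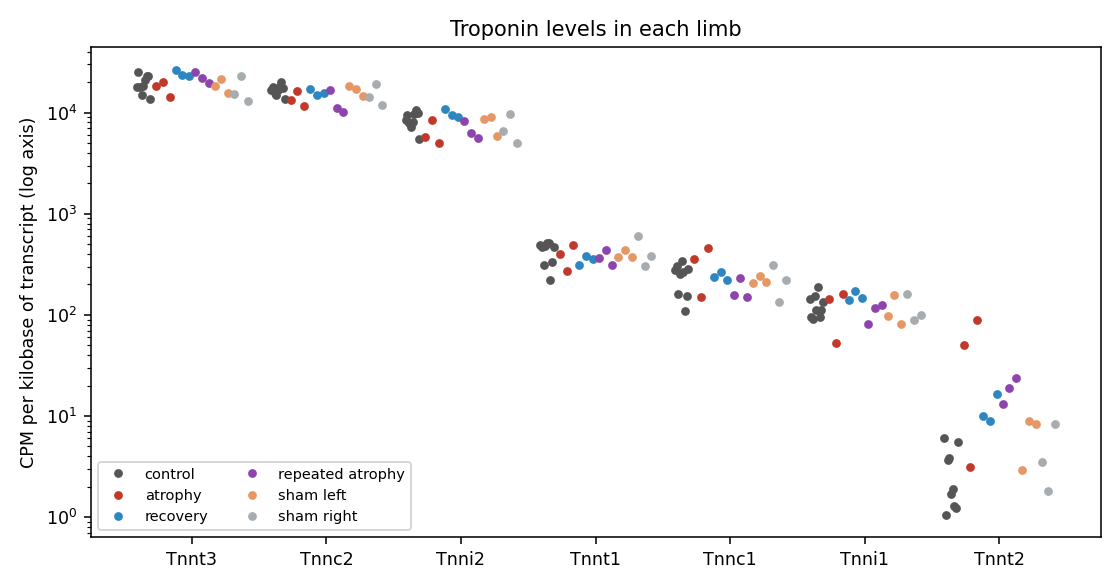
Level of each troponin gene in every limb, in CPM per kb of transcript with rows summed, on a log axis, by group. Tnnt2 is the only gene whose points leave the control range upwards by a wide margin, with 2 atrophy limbs at 49.8 and 88.6 CPM per kb beside 1.05 to 6.00 in control limbs.

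Cardiac troponin T was the member past the threshold. Tnnt2 measured between 1.15 and 6.57 CPM in the 9 control limbs, with a median of 2.07. After atrophy it was 54.6 CPM in animal 362, 3.42 CPM in animal 367 and 97.1 CPM in animal 372. After recovery it was 10.9, 9.74 and 18.04 CPM in animals 369, 370 and 371. After repeated atrophy it was 14.3, 20.9 and 26.3 CPM in animals 364, 365 and 366. Thus 8 of the 9 TTX limbs lay above every control limb, and the limb of animal 367 lay inside the control range. Of the 6 sham limbs 3 also lay above every control limb, at 9.87 CPM (left, animal 377), 9.06 CPM (left, animal 379) and 9.19 CPM (right, animal 379), and the recovery limb of animal 370 lay below the first of these. The reads behind these values numbered 25 to 2988 per library (median 176.5).

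Tnnt2 rose after atrophy by 2.95 ± 0.64 on the log2(CPM + 1) scale (limma, SE, adjusted p = 0.0079) and after repeated atrophy by 2.48 ± 0.64 (adjusted p = 0.0060). On that scale these were 7.70-fold and 5.58-fold. It was the 1 troponin gene of 7 past the threshold in each comparison, where 22.6% and 34.3% of all 14031 rows passed. Past the threshold on the higher side were 20.3% and 28.1% of all rows, and on the lower side 2.33% and 6.24%. After recovery the difference was 1.84 ± 0.64 (adjusted p = 0.080), and 0 of 7 troponin genes passed beside 7.73% of all rows. Of the 7 genes 1, Tnnt2, had an unadjusted p under 0.05 in that comparison.

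The call after repeated atrophy held in every alternative run, and the call after atrophy did not. With each animal's right limb as its own control, the value after atrophy was 2.44 ± 0.48 (limma with an animal block, adjusted p = 0.149), a fit in which 0 of 14031 rows passed for atrophy and 2678 had an unadjusted p under 0.05. After repeated atrophy the same fit gave 2.45 ± 0.48 (adjusted p = 0.0068). Without animal 367 the atrophy value was 4.25 ± 0.46 (limma adjusted p = 2.7e-05), without animal 362 it was 2.60 ± 0.74 (adjusted p = 0.130), and without animal 372 it was 2.18, still past the threshold. With rescaling the values were 2.62 after atrophy (adjusted p = 0.016) and 2.15 after repeated atrophy (adjusted p = 0.013). The recovery value passed after rescaling (1.85, adjusted p = 0.0496), with quantile normalization (1.86, adjusted p = 0.047), without animal 367 (1.79, adjusted p = 0.011), without animal 372 (1.955, adjusted p = 0.047) and in a fit of the 2 groups alone (adjusted p = 0.013). Without animal 371, whose limb had the highest recovery level, it was 1.51 ± 0.78 (adjusted p = 0.27).

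Within animals Tnnt2 was higher in the left limb in all 9 TTX animals. The left-to-right ratios were 8.31, 1.84 and 16.1 in atrophy animals 362, 367 and 372. They were 5.26, 6.96 and 13.4 in the recovery animals and 12.5, 5.21 and 6.30 in the repeated atrophy animals. The sham animals gave 0.833, 4.97 and 0.986, so the sham animal of the recovery time point, 377, lay among the TTX animals (left 9.87 and right 1.98 CPM). Sham left limbs exceeded control limbs by 1.04 ± 0.43 on the log2 scale (limma unadjusted p = 0.031, adjusted p = 0.34), in a comparison where 0.0% of 13822 rows passed and 1904 had an unadjusted p under 0.05.

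**Figure D2:**
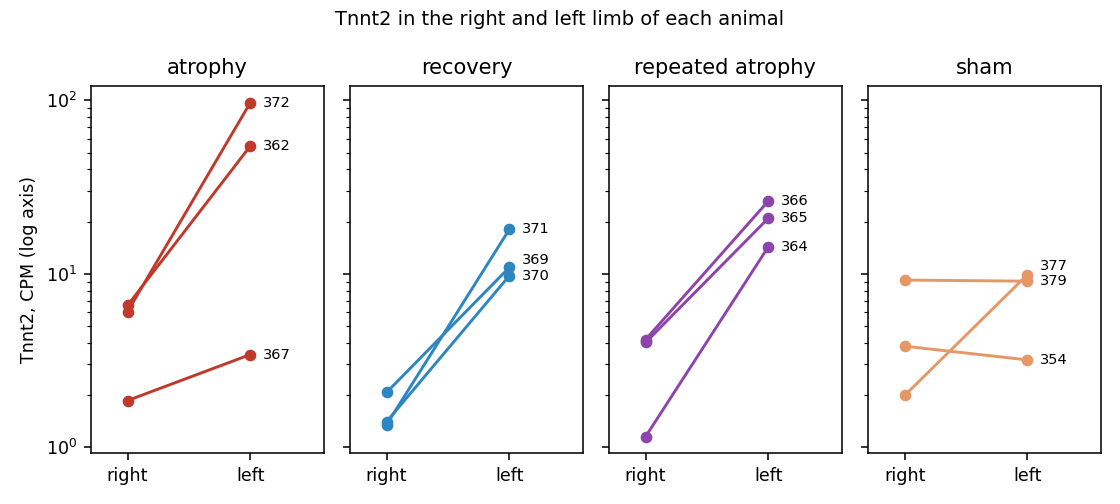
Tnnt2 in the right and left limb of each of the 12 animals, in CPM on a log axis. Each panel shows a group, and a line joins the limbs of an animal. The left limb is higher in all 9 TTX animals, by little in animal 367 with 3.42 CPM in the left limb. The levels of sham animal 377 lie among those of the recovery animals.

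Between the 3 TTX groups no Tnnt2 difference passed. Recovery differed from atrophy by -1.103 ± 0.78 (limma adjusted p = 0.33), repeated atrophy from recovery by 0.64 ± 0.78 (adjusted p = 0.58) and repeated atrophy from atrophy by -0.46 ± 0.78 (adjusted p = 1.0). These comparisons called 17.9%, 27.2% and 0.0356% of all rows, and 0 of the 7 troponin genes in each. Without animal 367, recovery was lower than atrophy by a log2 difference of -2.46 (adjusted p = 0.0052). The difference of repeated atrophy from atrophy ran from -1.82 without animal 367 to 0.42 without animal 372, so its sign turned on single animals, and it passed in neither fit (limma adjusted p = 0.41 and 0.96).

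The summed level of the heart muscle markers was lower in the atrophy and repeated atrophy limbs than in any control limb. Of the heart list Tnni3, Myh6, Nppa, Nppb, Myl7 and Mybpc3, 4 genes were in the table, and their summed level was 21.9 to 60.9 CPM in control limbs, 8.68 to 19.4 after atrophy, 18.1 to 24.3 after recovery, 5.53 to 10.4 after repeated atrophy, 25.9 to 39.7 in sham left limbs and 25.7 to 68.5 in sham right limbs. Tnni3, cardiac troponin I, was at most 0.618 CPM in any limb, and Nppa, the atrial natriuretic peptide gene, at most 0.246 CPM. Myh6 and Mybpc3 thus made up most of the sum. The satellite cell markers Pax7, Myf5 and Vcam1, which mark the muscle's stem cells, were all 3 in the table, and their sum was 5.75 to 14.1 CPM in control limbs, 13.2 to 91.2 after atrophy, 13.9 to 28.2 after recovery, 39.1 to 68.9 after repeated atrophy, 8.06 to 74.5 in sham left limbs and 4.02 to 58.0 in sham right limbs. Pax7, which defines the list, was at most 1.17 CPM in any limb. The fibroblast markers Col1a1, Col3a1, Pdgfra and Dcn summed to 181 to 496 CPM in control limbs and 954 to 1796 after recovery. The part of these cells in the Tnnt2 result was not tested.

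The slow genes Tnnt1, Tnni1 and Tnnc1 passed in no comparison by their highest rows. Tnnt1, slow troponin T, measured 137 to 326 CPM in control limbs (median 298), with 229, 158 and 303 CPM in the atrophy limbs, 184, 237 and 219 in the recovery limbs and 240, 301 and 205 in the repeated atrophy limbs. Tnni1, slow troponin I, measured 75.3 to 155 CPM in control limbs (median 90.9), with 118, 43.6 and 132 in the atrophy limbs, 116.6, 140 and 120 in the recovery limbs and 66.3, 95.9 and 102 in the repeated atrophy limbs. Tnnc1, troponin C of slow fibres and heart, measured 53.2 to 166 CPM in control limbs (median 129), with 172, 73.1 and 221 in the atrophy limbs, 114, 128 and 107 in the recovery limbs and 76.4, 113 and 73.1 in the repeated atrophy limbs. In all 3 genes the groups overlapped the control limbs, and animal 367 was the lowest of the atrophy limbs. For Tnnc1 the other 2 atrophy limbs lay above every control limb. After atrophy the log2 differences were -0.22 ± 0.24 for Tnnt1, -0.18 ± 0.27 for Tnni1 and 0.36 ± 0.32 for Tnnc1 (SE, limma adjusted p from 0.46 to 0.68). Without animal 367 Tnnc1 passed, at 0.90 ± 0.31 (adjusted p = 0.035). With an animal block its value was -0.05 and with rescaling -0.01. Tnni1 was lower in repeated atrophy than in recovery after rescaling (-0.88, adjusted p = 0.038), and did not pass without it (-0.52 ± 0.33, limma adjusted p = 0.26).

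The fast genes Tnnt3, Tnni2 and Tnnc2 also passed in no comparison by their highest rows. Tnni2, fast troponin I, measured 3713 to 7192 CPM in control limbs (median 5770), with 3923, 5694 and 3376 CPM in the atrophy limbs, 7295, 6477 and 6111 in the recovery limbs and 5651, 4234 and 3768 in the repeated atrophy limbs. Tnnc2, fast troponin C, measured 9726 to 14404 CPM in control limbs (median 12049), with 9525, 11711 and 8272 in the atrophy limbs, 12209, 10764 and 11247 in the recovery limbs and 11922, 8019 and 7308 in the repeated atrophy limbs. In Tnnc2, 2 limbs of the atrophy group and 2 of the repeated atrophy group lay below every control limb, while the third of each lay inside the control range. Within animals Tnnc2 was lower in the left limb in all 9 TTX animals, by log2 differences of -0.02 to -0.54, beside 0.36, -0.15 and 0.30 in sham animals 354, 377 and 379. The fit with an animal block did not call it in any group (limma adjusted p from 0.48 to 0.79). The log2 differences after atrophy were -0.43 ± 0.26 for Tnni2 and -0.29 ± 0.30 for Tnnc2 (limma adjusted p = 0.25 and 0.52), and after repeated atrophy -0.34 ± 0.26 and -0.43 ± 0.30 (adjusted p = 0.35 and 0.30). After recovery they were 0.22 and -0.07 (adjusted p = 0.66 and 0.92). The highest Tnnt3 row, fast troponin T, measured 3448 ± 903 CPM in control limbs (SD, n = 9) and differed by -0.06 ± 0.25, 0.25 ± 0.25 and 0.33 ± 0.25 in the 3 groups (limma adjusted p = 0.90, 0.57 and 0.35). Over the 7 genes the median difference was -0.18 in atrophy, 0.22 in recovery and -0.20 in repeated atrophy, beside 0.22, 0.02 and 0.20 over all rows.

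The slow-to-fast ratio of each subunit, as log2 of (CPM + 1) of the slow over (CPM + 1) of the fast gene, was compared directly. The log2 ratio of Tnnt1 to the highest Tnnt3 row averaged -3.68 ± 0.68 in control limbs (SD, n = 9), that of Tnni1 to Tnni2 -5.82 ± 0.51 and that of Tnnc1 to Tnnc2 -6.76 ± 0.64. The atrophy limbs differed from control by -0.17, 0.25 and 0.65, the recovery limbs by -0.54, 0.11 and 0.15 and the repeated atrophy limbs by -0.41, 0.14 and 0.08. None passed an exact two-sided permutation test over the 220 splits of 3 and 9 limbs, whose smallest possible p is 0.0045: the raw p ran from 0.209 to 0.859 and the Benjamini-Hochberg value over 12 ratio tests from 0.556 to 0.859.

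Animal 367 set the atrophy values. Its log2 ratios of Tnni1 to Tnni2 and of Tnnc1 to Tnnc2 were -7.00 and -7.30, while the other 2 atrophy limbs gave -5.05 and -4.67, and -5.78 and -5.22. Without it the differences from control were 0.95 for troponin I and 1.33 for troponin C (exact permutation p = 0.0444 for each over 45 splits, Benjamini-Hochberg 0.116). Left minus right in animals 362, 367 and 372 was 0.56, -1.11 and 0.40 for troponin I and 0.70, -1.15 and 0.89 for troponin C. The recovery animals gave -0.57, 0.99 and 0.55 for troponin I and -0.08, 1.67 and 0.68 for troponin C. The repeated atrophy animals gave -0.06, 0.69 and 0.06, and -0.83, 0.99 and -0.22. The ratios also varied from limb to limb within untreated animals. In sham animal 354 the left limb was lower than the right by 0.94, 1.13 and 0.94 log2 units for troponin T, I and C, and in sham animal 377 it was higher by 0.91, 0.91 and 0.97, so surgery without TTX was accompanied by differences as large as most of those in TTX animals. Within animals, the log2 ratio of Tnnt1 to the highest Tnnt3 row was lower on the left in all 6 animals of the 2 atrophy groups, by differences of -0.45, -1.14 and -0.21 in atrophy and -0.29, -0.38 and -1.34 in repeated atrophy. The recovery animals gave -0.98, 0.79 and 0.68 and the sham animals -0.94, 0.91 and -0.23, and with rows summed animal 365 gave 0.20. Among the 3 TTX groups an exact permutation test over all assignments of the 9 limbs gave p = 0.643, 0.979 and 0.593.

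**Figure D3:**
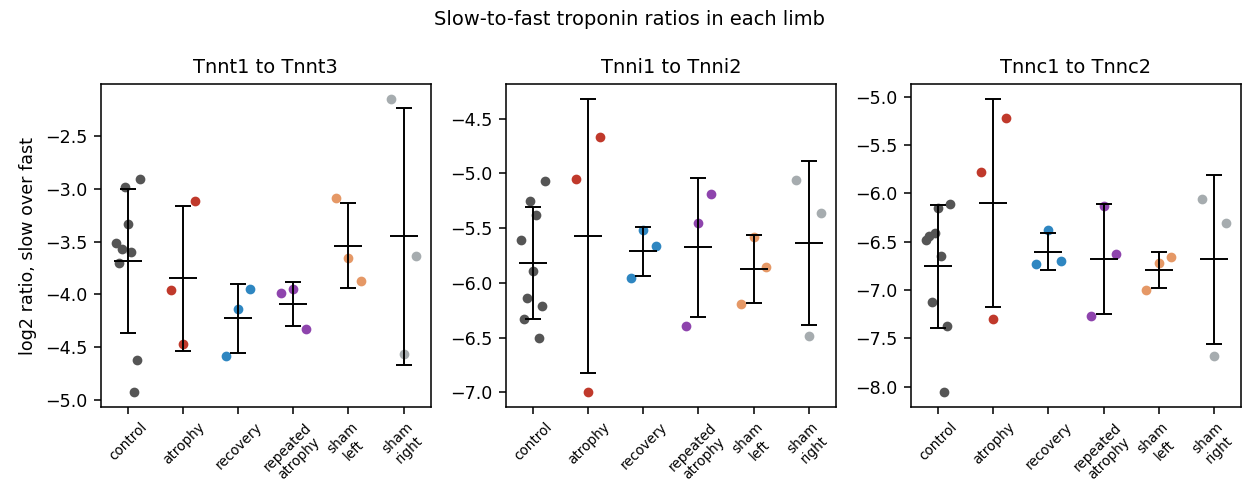
Log2 ratio of the slow to the fast gene, each as CPM + 1, of troponin T, I and C in each limb (points) with group mean and SD (bars), by group. Group means sit within about the control spread of each panel, and the lowest atrophy limb for troponin I and C, at -7.00 and -7.30, is that of animal 367.

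The cardiac-to-fast ratio of troponin T was compared in the same way. The log2 ratio of Tnnt2 to the highest Tnnt3 row, also of CPM + 1, which draws low Tnnt2 values together, was -9.80 ± 1.04 in control limbs (SD, n = 9) and was higher by 3.00 after atrophy (exact permutation p = 0.0227, Benjamini-Hochberg 0.136), 1.59 after recovery (p = 0.050, 0.200) and 2.15 after repeated atrophy (p = 0.00909, 0.109). None of these passed the correction over 12 ratio tests. With a pseudocount of 0.1 the control mean was -10.26 ± 1.27 and the differences were 3.34, 1.95 and 2.55, and with a pseudocount of 10 they were 1.85, 0.54 and 0.88. Sham left limbs were also higher than control, by 1.22 (p = 0.0864 by the same exact permutation test), with ratios of -8.89, -8.36 and -8.48. Within animals the ratio was higher on the left in all 9 TTX animals, by 2.78, 0.52 and 3.56 in atrophy, 1.79, 2.15 and 3.57 in recovery and 2.90, 1.25 and 1.70 in repeated atrophy, beside -0.40, 2.04 and -0.28 in the sham animals. The permutation test does not use this pairing of limbs. Of the 9 TTX limbs 6 lay above every control limb, and those of atrophy animal 367 and recovery animals 369 and 370 lay inside the control range. Per length, Tnnt2 nevertheless remained a trace of troponin T: 0.0165 ± 0.0131% in control limbs (SD, n = 9), and at most 0.602% in any limb, that of atrophy animal 372.

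The amounts of the 3 subunits relative to each other were examined after their values were seen, and are given as a description. Troponin T to troponin I per length was 2.13 to 2.66 in control limbs. It was 3.17, 2.41 and 2.87 in atrophy animals 362, 367 and 372, 2.47, 2.45 and 2.55 in the recovery limbs and 3.03, 3.55 and 3.52 in the repeated atrophy limbs. All 3 repeated atrophy limbs and 2 of 3 atrophy limbs were thus above every control limb, and the recovery limbs were inside the control range. In sham limbs the ratio was 2.13 to 2.71. Troponin C to troponin I was 1.74 to 2.48 in control limbs, 1.96 to 2.34 in the atrophy limbs, 1.575 to 1.742 after recovery, 1.80 to 2.00 after repeated atrophy and 1.89 to 2.53 in sham limbs. All 3 recovery limbs were below every control limb, the highest of them (1.7418) by little (1.7441).

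Within the Tnnt3 total, the transcript rows moved apart. The 13 rows, 1035 to 1080 bases long, fell into 2 sets by their correlation over the 15 untreated limbs: within a set r ran from 0.907 to 0.999 (36 pairs), and between the sets from -0.118 to 0.0856 (42 pairs). Set A had 7 rows and set B had 6, and each of the 6 lengths that occurred in a pair of rows gave 1 row to each set. The sets were made after the values were seen, their rows share reads, and the deposited table does not say which exons set them apart.

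After atrophy all 6 rows of set B fell and 0 of 7 rows of set A passed. The set B rows fell by 1.68 (1047 bases, limma adjusted p = 0.013), 1.498 (1062 bases), 1.35 (1065), 1.099 (1080), 1.06 (1068) and 1.01 (1053) on the log2 scale, with adjusted p up to 0.035, beside the 2.33% of all rows that fell. After recovery 0 of 6 rows of set B passed and 3 of set A rose, by 1.01 (1053 bases, adjusted p = 0.018), 0.82 (1080) and 0.81 (1068), beside 4.4% of all rows that rose and 3.33% that fell. After repeated atrophy 4 rows of set A rose, by 0.88 (1068 bases, adjusted p = 0.0036), 0.86 (1080), 0.63 (1065) and 0.63 (1035), beside 28.1% of all rows that rose, and 0 rows of set B passed. With an animal block 0, 0 and 2 of these calls held; the blocked values of set B in atrophy ran from -1.32 to -0.73, in the fit where 0 of all rows passed. Between TTX groups 1 Tnnt3 row passed, the set B row of 1053 bases, higher in recovery than in atrophy by 1.41 ± 0.40 (limma adjusted p = 0.023) and not with an animal block (0.998, adjusted p = 0.60) or without animal 362, 369, 370, 371 or 372, beside 17.9% of all rows. The 6 falls after atrophy also held with rescaling, and the 4 rises after repeated atrophy did not. Without animal 362 or without animal 372, 0 of the falls held, and without animal 365 or 369, 3 held. Without animal 367, 6 rows fell in atrophy, by 2.54 (1047 bases), 2.31 (1062), 2.05 (1065), 1.74 (1080), 1.69 (1068) and 1.52 (1053), beside 3.85% of all rows that fell. In the same fit 2 of set A rose, beside 30.7% of all rows that rose. The set B row of 1047 bases also passed in repeated atrophy without this animal (-0.79, limma adjusted p = 0.042). Without animal 369 or 370, 0 of the rises after recovery held, and without animal 365, 366 or 369, 2 of those after repeated atrophy held.

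**Figure D4:**
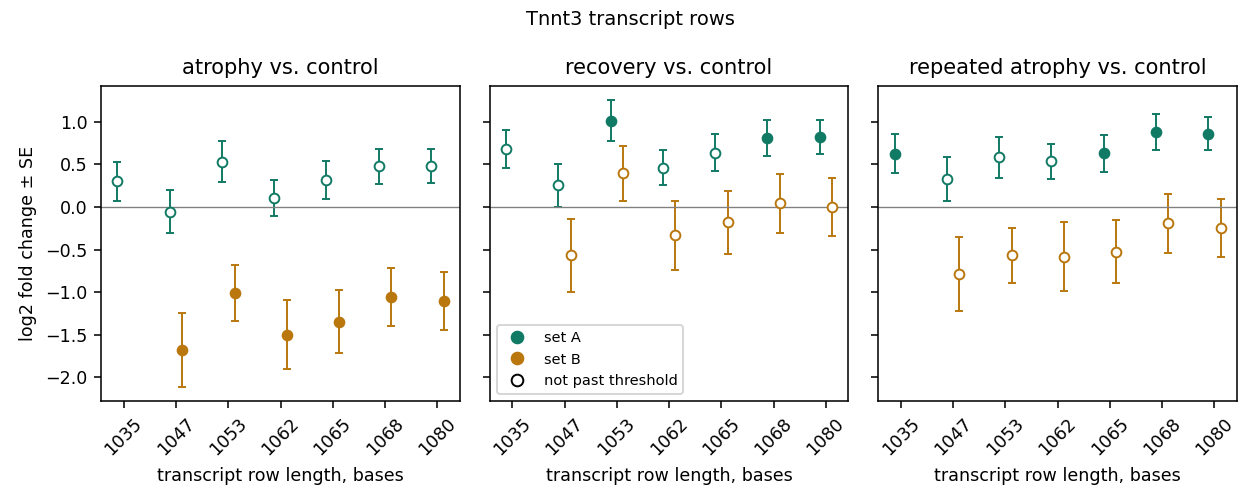
Log2 difference from control with its SE for each of the 13 Tnnt3 rows, plotted by transcript length, for atrophy, recovery and repeated atrophy. Filled points passed the threshold: all 6 of set B in atrophy, 3 of set A in recovery and 4 of set A in repeated atrophy.

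As a share of all Tnnt3 CPM, set B was 33.0 to 52.3% in control limbs, with a mean of 41.4 ± 5.64% (SD, n = 9). It was 10.0% in atrophy animal 362, 40.9% in animal 367 and 13.6% in animal 372. After recovery it was 31.5, 22.7 and 33.3%, and after repeated atrophy 37.2, 18.7 and 19.1% in animals 364, 365 and 366. In all, 2 atrophy limbs, 2 recovery limbs and 2 repeated atrophy limbs lay below every control limb. Sham limbs spread more widely, with 64.6, 39.2 and 31.6% on the left and 66.0, 45.5 and 26.6% on the right in animals 354, 377 and 379, so the lowest untreated limb, at 26.6%, lay below 2 of the recovery limbs.

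The left and right limbs of a sham animal differed by at most 6.33 percentage points in this share. Left minus right was -1.36, -6.33 and 5.04 percentage points in the sham animals. It was -24.3, -0.82 and -26.2 points in atrophy animals 362, 367 and 372, -9.80, -20.6 and 0.32 points in recovery animals 369, 370 and 371 and -5.65, -33.6 and -24.9 points in the repeated atrophy animals. The ratio of set A to set B was nearly the same for all 6 lengths within a limb. In animal 362 it was 6.50 to 7.34 in the left limb and 1.37 to 1.55 in the right, and in sham animal 354 it was 0.388 to 0.436 and 0.384 to 0.406. The summed level of set A was 12046 ± 2805 CPM in control limbs (SD, n = 9) and 14227 ± 2711 after atrophy (SD, n = 3), while that of set B was 8462 ± 1918 and 4198 ± 3844.

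**Figure D5:**
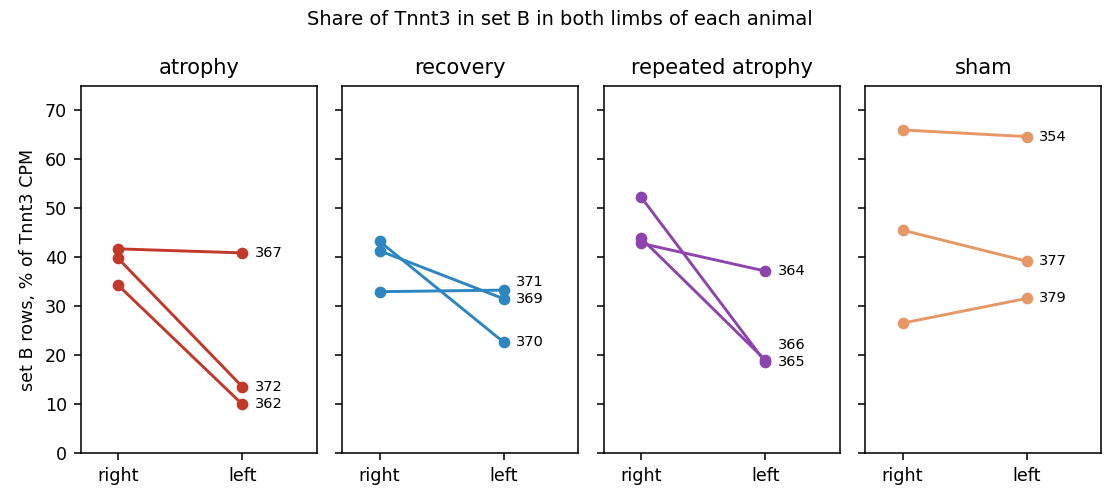
Set B rows as a percentage of all Tnnt3 CPM in the right and left limb of each animal. Each panel shows a group, and a line joins the limbs of an animal. The lines of the 3 sham animals and animal 367 are nearly level. In atrophy animals 362 and 372 the left limb is 24.3 and 26.2 percentage points below the right.

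Of the 4 Tnnt1 rows 1 passed after repeated atrophy, on the lower side, where 6.24% of all rows passed. The row of 911 bases measured 18.1 ± 6.75 CPM in control limbs (SD, n = 9, 9.78 to 31.1) and 9.63 ± 3.80 after repeated atrophy (SD, n = 3, 6.17 to 13.7), so the groups overlapped, a log2 difference of -0.83 ± 0.30 (limma adjusted p = 0.037). With an animal block the value was -0.48 (adjusted p = 0.27), and it did not pass without animal 362, 364, 366 or 369, with a pseudocount of 10 (-0.50, adjusted p = 0.059) or with all 24 limbs in 1 fit (adjusted p = 0.058). It was also lower in repeated atrophy than in recovery (-1.03, limma adjusted p = 0.041), where 27.2% of all rows passed, but not with an animal block (-0.77, adjusted p = 0.34). With rescaling its difference from control was -1.18 (adjusted p = 0.0072), and the row of 941 bases passed as well (-0.61, adjusted p = 0.039), beside -0.23 (adjusted p = 0.50) without rescaling. The row of 908 bases, which differs in length by 3 bases, gave -0.05 ± 0.45 (adjusted p = 0.95).

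Partners of troponin on the thin filament passed in both directions. The list had 16 genes, 14 of them in the table, and like the lists below was chosen with earlier results of these data known. After atrophy 6 rose and 2 fell, with a median of 0.48 beside 0.22 over all rows, and after repeated atrophy again 6 rose and 2 fell, with a median of 0.61 beside 0.20. Of all rows 20.3% were higher and 2.33% lower in atrophy, and 28.1% and 6.24% in repeated atrophy. Without animal 367, an alternative for the lists chosen after the data were seen, 7 rose and 2 fell in atrophy with a median of 0.75, where 30.7% of all rows were higher and 3.85% lower. With an animal block the counts with all animals became 0 and 0 in atrophy, in a fit where 0 of all rows passed. In repeated atrophy they became 7 and 1. With rescaling they were 4 and 2, and 6 and 2. Tmod1, which caps the pointed end of the filament, rose by 1.23 ± 0.23 and 1.67 ± 0.23 (limma adjusted p = 0.0060 and 8.8e-05), and Lmod2, which lengthens it, by 1.82 ± 0.46 and 2.19 ± 0.46. Without animal 367 the atrophy values of the pair were 1.65 and 2.37. Klhl40 and Klhl41, which stabilise thin filament proteins, rose by 0.94 and 1.42 in atrophy, then 1.58 and 1.59 in repeated atrophy, and the atrophy value of Klhl40 did not hold with rescaling (0.57, limma adjusted p = 0.105). Tpm3, the slow tropomyosin to which troponin T binds, fell by 1.14 ± 0.23 and 1.67 ± 0.23 (adjusted p = 0.0066 and 0.000105), whereas the other tropomyosins Tpm1, Tpm2 and Tpm4 gave -0.34, -0.02 and 0.23 after atrophy and passed in neither. After recovery 1 gene of 14 rose, beside 4.4% of all rows: Actc1, cardiac actin, by 3.88 ± 0.59 (adjusted p = 0.0015), with 0.74 after atrophy and 0.96 after repeated atrophy, neither past the threshold.

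Other genes of slow and fast fibres passed, in both directions for slow genes. Of 11 slow fibre genes 1 was higher and 4 lower in atrophy, 1 was higher in recovery, and 2 were higher and 4 lower in repeated atrophy, with medians of 0.05, -0.11 and -0.23 beside 0.22, 0.02 and 0.20 over all rows. The shares of all rows were 20.3%, 4.4% and 28.1% on the higher side and 2.33%, 3.33% and 6.24% on the lower side. Myh7, slow myosin heavy chain, fell by 1.62 ± 0.34 and 2.34 ± 0.34 after the 2 TTX periods (limma adjusted p = 0.0072 and 0.00014), and its light chain Myl3 fell by 1.1955 and 2.43. Csrp3, a muscle LIM protein, rose by 2.83 and 2.55, against the direction of the other called slow genes after atrophy. Without animal 367 the slow genes gave 3 higher and 3 lower in atrophy with a median of 0.38. In that fit 30.7% of all rows were higher and 3.85% lower. The balance of the slow genes thus turned on this animal: Myl2, a slow light chain, no longer passed (-0.66, limma adjusted p = 0.083), and Csrp3 gave 3.68. Of 11 fast fibre genes, 3 were lower in atrophy, 0 passed in recovery and 5 were lower in repeated atrophy, with 0 higher in any of the 3, with medians of -1.02, 0.02 and -1.09. Actn3, the fast alpha-actinin, fell by 2.11 ± 0.49 and 2.06 ± 0.49 (adjusted p = 0.0094 and 0.0036), and Mybpc2, fast myosin-binding protein C, by 1.70 and 2.04. Without animal 367 1 fast gene was higher and 5 were lower in atrophy, with a median of -1.47, and Actn3 and Mybpc2 gave -3.13 and -2.41. With an animal block 0 slow or fast genes passed after atrophy, in a fit where 0 of all rows passed. After repeated atrophy the blocked fit gave 2 slow genes higher, 4 slow genes lower and 4 fast genes lower.

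Genes of developing and denervated muscle form a class to which Tnnt2 is also counted. Of 11 such genes 7 rose in the atrophy limbs, 4 in the recovery limbs and 10 in the repeated atrophy limbs, and 0 fell, beside 20.3%, 4.4% and 28.1% of all rows that rose. The medians were 2.07, 1.07 and 3.42, beside 0.22, 0.02 and 0.20 over all rows. With rescaling 5, 4 and 9 rose, and with an animal block 0, 3 and 11. In the blocked atrophy fit 0 of all rows passed. Without animal 367 10 rose in atrophy with a median of 3.07, where 30.7% of all rows were higher. Myog, the myogenic factor that loss of activity induces, rose by 3.01 ± 0.56 and 3.403 ± 0.56 after the 2 TTX periods (limma adjusted p = 0.0060 and 0.00029) and gave -0.10 after recovery. Myh8, neonatal myosin heavy chain, rose by 1.34, 3.79 and 2.39 in the 3 groups, so its value was highest after recovery, where that of Tnnt2 was lowest. The atrophy value of Myh8 did not hold with rescaling (0.98, limma adjusted p = 0.096).

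Regulators of troponin and fibre type genes, 19 of 22 in the table, gave 6 higher and 1 lower in atrophy, 0 in recovery, and 7 higher and 3 lower in repeated atrophy, beside 20.3%, 4.4% and 28.1% of all rows on the higher side and 2.33%, 3.33% and 6.24% on the lower side. Without animal 367 the atrophy count was 7 higher and 1 lower, where 30.7% of all rows were higher and 3.85% lower. The medians were 0.45, -0.14 and 0.28, beside 0.22, 0.02 and 0.20 over all rows. With rescaling the counts were 2 higher and 1 lower for atrophy, and 4 and 5 for repeated atrophy. With an animal block they were 0 and 0, in a fit where 0 of all rows passed, and 7 and 2. Rcan1, a calcineurin target and inhibitor, rose by 2.30 ± 0.31 and 2.39 ± 0.31 (limma adjusted p = 0.0051 and 7.6e-05), and Nfatc1, the calcineurin-controlled factor of slow fibres, fell by 0.67 ± 0.19 and 1.05 ± 0.19. Sox6, a repressor of slow fibre genes, rose by 0.68 and 0.79, but neither value held with rescaling (0.36 and 0.46, limma adjusted p = 0.295 and 0.12), nor that of atrophy with an animal block (0.26, adjusted p = 0.61). Tead1, which binds the M-CAT element, was higher after atrophy by 0.63 ± 0.20 (limma adjusted p = 0.030). After repeated atrophy it was lower, by a log2 difference of -0.58 ± 0.20 (limma adjusted p = 0.030). Tnnt2 was higher in both. Any part of Tead1 in the Tnnt2 result was not tested. The rise of Tead1 did not hold with rescaling (0.35, adjusted p = 0.23), and its fall did not hold with an animal block (-0.63, adjusted p = 0.0502).

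The genes most like each member over the 24 limbs, by Pearson's r of log2(CPM + 1) among rows with a mean of at least 10 CPM, are given as a description, since limbs share animals, groups and depth. For Tnnt2 they were Ctsb (r = 0.900), a lysosomal protease, Actn2 (0.897), the sarcomeric alpha-actinin, and Ankrd13a (0.897). For Tnni2 they were Mylpf (0.926), the fast regulatory light chain, Mdh2 (0.919) and Enpp2 (0.915), and for Tnnc2 Fxyd1 (0.914), Gapdh (0.872) and Hrc (0.838). For Tnnc1 they were Myoz2 (0.849), a slow-fibre Z-disc gene, Xpo4 (0.701) and Zfp672 (0.654), and for Tnnt1 Atp2a2 (0.693), the slow calcium pump, Xpo4 (0.630) and Myoz2 (0.626). For Tnni1 they were Casq2 (0.744), the slow and cardiac calsequestrin, Prepl (0.712) and Gas7 (0.668), and for the highest Tnnt3 row Adk (0.792), Mrps22 (0.788) and Tspan31 (0.768).

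Among the members, Tnni2 and Tnnc2 moved together with r = 0.874 over 24 limbs and 0.953 over the 15 untreated limbs, and Tnnt1 and Tnnc1 with 0.783 and 0.960. The highest Tnnt3 row followed Tnnc2 less closely, with 0.147 and 0.525. Of the genes lying between member pairs, Lad1, between Tnni1 and Tnnt2, was at most 0.854 CPM in any limb. Lsp1, between Tnni2 and Tnnt3, was 7.11 to 18.2 CPM in control limbs. It was 9.30 to 17.3 after atrophy, 8.43 to 17.8 after recovery and 15.2 to 18.02 after repeated atrophy. In sham limbs it was 7.91 to 30.7 CPM on the left and 9.81 to 28.8 on the right.

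In the sham animals 0 of 7 troponin genes passed, for left limbs vs. control and for left vs. right limbs alike, beside 0.0% of rows in each. Between sham left and right limbs 576 of 13483 rows had an unadjusted p under 0.05. Tnnt2 had the largest difference of the 7 in both comparisons, at 1.04 and 0.55 on the log2 scale (limma adjusted p = 0.34 and 0.94), and the other 6 lay between -0.18 and 0.18.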

How the data were processed

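The deposited table held values in CPM, made by the authors in Partek Flow 12.4.0: reads of directional poly(A) libraries were cleared of contaminants with bowtie2 2.2.5 and aligned with STAR 2.7.3a to rn7; the annotation and counting step are not given in the sources used here. The methods name DESeq2's median of ratios as the normalization, but each column summed to 1000000, so the values were treated as CPM, and the step that made them is not given in the sources used here. Of 27 value columns, 24 matched a labelled limb and 3 were not used, and 28 duplicate rows were dropped. Rows are transcripts: low values were whole multiples of 1 read (within 0.1 reads) for 98.1 to 98.6% of single-row symbols but for 28.0 to 35.2% of others, so no count test was run.

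log2(CPM + 1) was tested with limma 3.58.1 in R 4.3.3, with intensity trend and Benjamini-Hochberg adjustment, over rows above 0 in at least 3 limbs. Ratios were tested by exact permutation. Limbs of 1 animal are paired by origin (correlation 0.108), and the blocked fit is an alternative. Its list counts after repeated atrophy are given without the share of all rows. Named genes were the 7 members, the 3 genes most like each, positional neighbours and genes of fixed lists. Members and lists were chosen with earlier results of these data known, and the Tnnt3 sets after seeing values. The fit was tested on simulated data. Precision is limited by 3 limbs a group, and p-values measure the spread between these limbs.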

Additional observations from a re-analysis of the deposited data

How the results depend on the processing

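Of the troponin genes past the threshold after atrophy, 1 became 0 with the right limbs of the same animals or with an animal block (replicate block), and 0 to 2 when an animal was left out: 0 without animal 362, and 2 without animal 367. After recovery 0 became 1 with trimmed-mean scaling, quantile normalization or a fit of the compared groups alone, and 0 to 1 with an animal left out (1 without animal 367 or 372), the gene being Tnnt2 each time. After repeated atrophy 1 became 2 with quantile normalization (adding Tnnc1) or no intensity trend (adding Tnnc2), and was 1 to 1 with an animal left out. Between TTX groups 0 became 1 for recovery vs. atrophy without animal 367, and 1 for repeated atrophy vs. recovery with trimmed-mean scaling or quantile normalization, where Tnni1 was lower. In each case the cause was not tested.

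The slow-to-fast log2 ratios passed in none of the main tests, and the signs of many depended on the setting. The group value of Tnnt1 to Tnnt3 after repeated atrophy was negative in each setting given here. Tnnt1 to Tnnt3 became 0.015 after atrophy with rows summed, 0.16 after recovery with the block, and -0.105 in sham left limbs with quantile normalization. No sham limb is a control limb, so the block gave sham left against sham right limbs instead (-0.087), another comparison than that with control. Tnni1 to Tnni2 became -0.13 after atrophy with quantile normalization, -0.048 with the block, and -0.298 after repeated atrophy with quantile normalization. Tnnc1 to Tnnc2 became -0.099 after atrophy and -0.857 after repeated atrophy with quantile normalization, and -0.018 with the block. Quantile normalization brought Tnnt1 to Tnnt3 (-0.862) and Tnnt2 to Tnnt3 (1.782) past 0.05 after repeated atrophy, and Tnnt2 to Tnnt3 after recovery (1.764).

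With an animal left out, Tnnt1 to Tnnt3 ran from -0.435 to 0.19 after atrophy, -0.798 to -0.351 after recovery, -0.561 to -0.199 after repeated atrophy and -0.081 to 0.312 in sham left limbs. Tnni1 to Tnni2 ran from -0.109 to 0.953, -0.073 to 0.286, -0.029 to 0.438 and -0.203 to 0.103. Tnnc1 to Tnnc2 ran from 0.294 to 1.33, -0.12 to 0.233, -0.237 to 0.417 and -0.197 to 0.071. Tnnt2 to Tnnt3 ran from 2.163 to 4.377, 1.065 to 1.774, 1.996 to 2.337 and 1.068 to 1.41. Of 1178 single-gene values that passed in neither fit, 85 changed sign.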
